A study of Mus musculus with 192 samples.

Results

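Tcf7l2 and Prkcd are genes commonly used as markers of the thalamus, and their levels are described here over a grid of small cubes (voxels) of mouse brain tissue. Both were chosen by name: a row of the deposited table belonged to them if the array's annotation gave that symbol, and each had 1 row. They are 2 of 15609 genes kept for testing, of which 8447 had a symbol. Each voxel sample was hybridised on a 2-colour array against RNA of the whole brain, which served as the common control, giving 192 arrays. They came from 3 separate harvests, called datasets 1, 2 and 3 here, with 59, 68 and 65 arrays. All animals were C57BL/6 males at postnatal day 56. Voxel RNA carried Cy3 in datasets 1 and 3 and Cy5 in dataset 2, with the whole brain RNA in the other dye, so dye and dataset cannot be told apart. The labels call the voxel RNA pooled and do not say from how many animals. Voxels are named by grid row (A to G) and grid column (1 to 11), with no anatomical direction given. The grid had 68 positions. Every dataset covered 56 of these, and the remaining 12 were covered by 2 datasets, so each dataset is 1 replicate of a position.

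Tcf7l2 encodes a transcription factor of the TCF/LEF family, the partners of beta-catenin at the end of canonical Wnt signalling. Neurons of the thalamus and habenula express it through adult life, and newly formed oligodendrocytes express it for a short time. Prkcd encodes protein kinase C delta, a kinase activated by diacylglycerol without calcium, and is known from relay nuclei of the thalamus, from the lateral part of the central amygdala and from the septum.

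The sequences just upstream of both genes are shown because the 2 maps are compared throughout and because TCF/LEF factors bind a core of CTTTG. They are the 250 bases before the first listed start of each gene, from RefSeq on GRCm38.p6, read 5′ to 3′ along the gene's strand, with CTTTG or its reverse complement CAAAG in capitals. The Tcf7l2 stretch lies at chr19:55741560-55741809 on the plus strand and that of Prkcd at chr14:30626209-30626458 on the minus strand.
Tcf7l2: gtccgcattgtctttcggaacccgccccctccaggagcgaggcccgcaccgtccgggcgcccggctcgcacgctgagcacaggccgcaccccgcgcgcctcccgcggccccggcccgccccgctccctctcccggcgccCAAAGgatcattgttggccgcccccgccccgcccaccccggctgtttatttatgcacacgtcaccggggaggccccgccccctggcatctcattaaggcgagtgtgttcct
Prkcd: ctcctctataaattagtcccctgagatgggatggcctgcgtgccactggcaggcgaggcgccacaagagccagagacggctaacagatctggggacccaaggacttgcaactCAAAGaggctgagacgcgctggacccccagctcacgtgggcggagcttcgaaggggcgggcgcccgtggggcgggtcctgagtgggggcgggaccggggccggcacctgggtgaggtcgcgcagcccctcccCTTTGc
The Tcf7l2 stretch held 1 such core and the Prkcd stretch 2, counting both strands. Among all 32851 listed upstream stretches of that length, 48.6% held at least 1, so the core is common. The longer forms CTTTGAA and CTTTGAT, which contain it, were held by 4.5% and 3.2% of those stretches and by neither of these. GC content was 72.8% before Tcf7l2 and 67.6% before Prkcd, with a median of 52.4% over all stretches. These values belong to the first listed starts. The stretches before a second listed start had a GC content of 40.8% for Tcf7l2 and 50.8% for Prkcd, with 1 core each. The spots that measured the genes are cDNA clones whose sequences were not used here.

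Values are log2 ratios that the authors had centred on each row's median, so they compare positions with each other and not one gene's abundance with another's. A level given here is the array's value minus that gene's mean over the arrays of its dataset. Higher values are taken to mean more RNA in the voxel, which is likely but not stated in the labels, and rests on where other marker genes were high, a basis chosen after the values were seen. In such bulk samples, fewer cells of a type and less RNA per cell cannot be told apart. Tcf7l2 was measured on 190 arrays and missing at G3 and G8 of dataset 3. Prkcd was measured on 186, with 4 values missing and 2 at the floor of the table (-6.64, treated as not measured), so its level at E1 rests on 1 array. In dataset 3 the arrays of G8, G3 and G6 had 41.5%, 20.4% and 15.1% of all rows missing or at the floor, against a median of 1.56% per array.

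A set of 6 arrays stood apart before any test. In dataset 2 the arrays labelled D1, D2 and D3 gave Tcf7l2 levels of 2.27, 2.39 and 2.42, while those labelled D5, D6 and D7 gave -0.23, -0.04 and -0.15. Dataset 1 gave 0.21, -0.08 and 0.51 at D1 to D3 and 3.86, 3.59 and 3.01 at D5 to D7. Dataset 3 gave -0.87, -0.33 and -0.22 and then 3.52, 2.70 and 2.39. High and low positions of row D were thus exchanged in dataset 2 relative to the others. Prkcd showed the same exchange, less clearly at D3. Its dataset 2 levels were 2.12, 2.18 and 1.55 at D1 to D3 and -0.53, -0.69 and -0.75 at D5 to D7. At D1 to D3 dataset 1 gave -0.91, -0.27 and 0.69 and dataset 3 gave 0.46, -0.13 and 0.59. At D5 to D7 datasets 1 and 3 lay between 1.07 and 2.46. Whether the labels or the tissue of these 6 arrays differ was not tested, and the values below use all arrays unless stated. Position orders, row D values, tests and correlations that move without them are given a second time without them. The 6 arrays stand apart by the levels of these same genes. Contrasts, F values and correlations that grow without them are therefore no separate support.

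**Figure D1:**
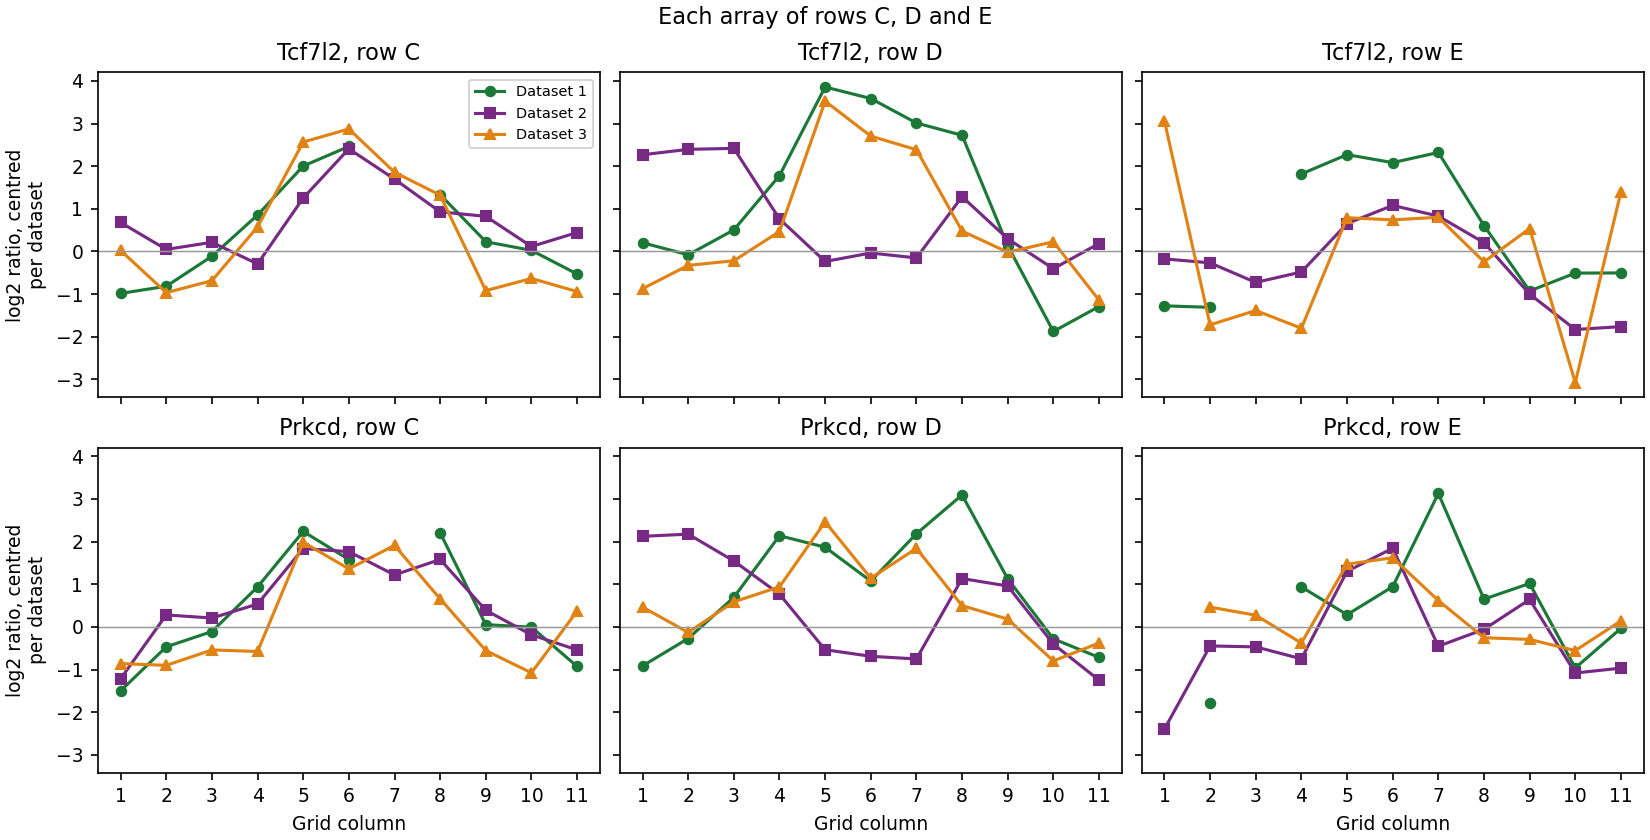
Each point is 1 array: the log2 ratio, centred per dataset, of Tcf7l2 (top) and Prkcd (bottom) along grid columns 1 to 11 in rows C, D and E, with a line and marker for each dataset. In row C the 3 datasets rise together at columns 5 to 7, and in row D dataset 2 is high at columns 1 to 3 where datasets 1 and 3 are lower.

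Both genes differed among positions. A moderated F test over the 68 positions with dataset as a block (limma, Benjamini-Hochberg adjustment over all genes) gave F = 2.76 and an adjusted p of 4.2e-05 for Tcf7l2, and F = 2.95 and an adjusted p of 1.1e-05 for Prkcd. It called 767 genes, which is 4.91% of those tested, and the members ranked 188 and 160 by F. Without the 6 arrays of row D the values were F = 3.68 (adjusted p = 4.3e-08) and F = 3.78 (adjusted p = 2.9e-08), while 4.77% of genes were called. The call for Tcf7l2 was lost when dataset 1 was left out (F = 1.80, adjusted p = 0.214) or dataset 3 (F = 2.08, adjusted p = 0.0533), and that for Prkcd when dataset 3 was left out (F = 2.07, adjusted p = 0.0624).

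Tcf7l2 was highest in a block of the middle columns of rows C, D and E. Its 10 highest position means were at C6, D5, D6, C5, C7, D7, D8, E7, E6 and E5, in that order. At C6 the arrays of datasets 1, 2 and 3 gave 2.46, 2.41 and 2.87, a mean of 2.58 ± 0.25 (SD, n = 3). D5 followed at 2.38 ± 2.27 (SD, n = 3), a spread set by the dataset 2 array, and without it D5 was at 3.69 ± 0.23 (SD, n = 2). With the 6 arrays left out, D6 (3.15 ± 0.62) and D7 (2.70 ± 0.44; SD, n = 2) also stood above C6, which was then at rank 4 behind these 3 positions of row D. C5 stood at 1.94 ± 0.66 (SD, n = 3) and C7 at 1.78 ± 0.11 (SD, n = 2). The lowest position means lay in rows F and G and at E10. E10 was at -1.80 ± 1.28 (SD, n = 3), F3 at -1.80 ± 0.45 (SD, n = 3) and F9 at -1.78 ± 0.19 (SD, n = 3). The lowest of row G was G4, at -1.51 ± 0.40 (SD, n = 3). In the order of all 68 means, no neighbouring pair was further apart than the larger of its SDs (0 of 67 pairs), so the order is firm only between distant positions.

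Prkcd was high in much the same block, with 7 of its 10 highest positions shared with Tcf7l2. At C5 its arrays gave 2.24, 1.84 and 1.98, a mean of 2.02 ± 0.20 (SD, n = 3). C6 was at 1.57 ± 0.20 (SD, n = 3), C7 at 1.57 ± 0.49 (SD, n = 2) and E6 at 1.47 ± 0.47 (SD, n = 3). These positions were high in every dataset that measured them. Columns 4 and 8 were high too, with D8 at 1.58 ± 1.35, C8 at 1.48 ± 0.78 and D4 at 1.28 ± 0.75 (SD, n = 3). Each of these was above 0 in every dataset. The nominally highest mean was at G9, 2.03 ± 3.35 (SD, n = 3), and came from 1 array: dataset 3 gave 5.77 there, and datasets 1 and 2 gave -0.67 and 0.99. The highest mean without the 6 arrays of row D was at D5 (2.17 ± 0.42, SD, n = 2), followed by G9 and C5, with D7 next at 2.01 ± 0.24 (SD, n = 2). At the low end, E1 was at -2.39 on its single array, A8 at -1.91 ± 1.61 (SD, n = 2), A9 at -1.60 ± 0.72 (SD, n = 3) and C1 at -1.19 ± 0.32 (SD, n = 3). For Prkcd too, no neighbouring pair in the order was separated by more than the larger SD (0 of 67 pairs). C5 and C6 were the positions among the 10 highest of every dataset, for either gene.

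**Figure D2:**
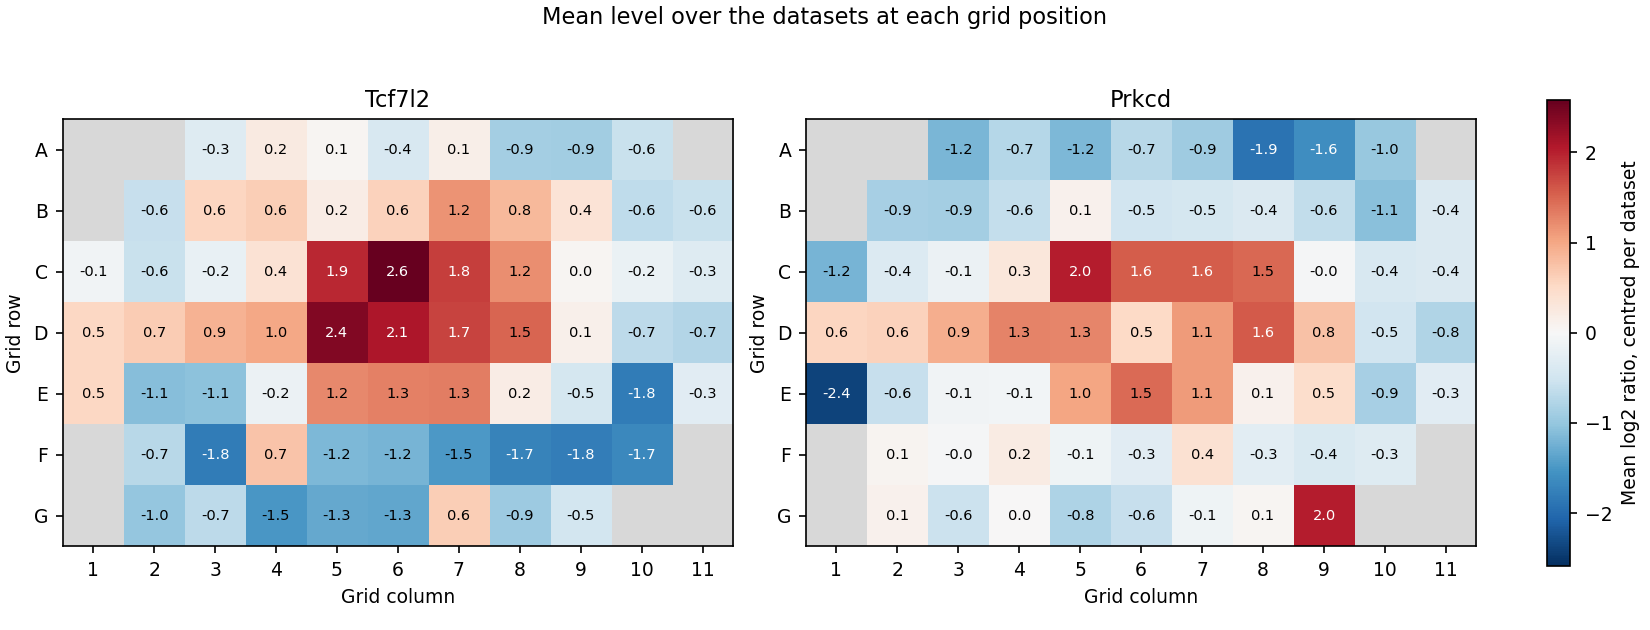
Colour and number give the mean log2 ratio over the datasets, centred per dataset, at each grid position (rows A to G down, columns 1 to 11 across, grey where no position exists) for Tcf7l2 and Prkcd. Both are high in the middle columns of rows C to E, with Tcf7l2 at 2.58 in C6 and Prkcd at 2.02 in C5, and they part in the rows above and below, where Prkcd is low in row A and Tcf7l2 is low in row F.

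Row by row, Tcf7l2 in columns 5 to 7 was near its dataset mean in row A, with 0.07, 0.02 and -0.30 in datasets 1, 2 and 3. It stood at 0.24, 0.84 and 0.88 in row B and at 2.23, 1.79 and 2.43 in row C. Row D gave 3.48, -0.14 and 2.87, and row E gave 2.22, 0.85 and 0.78. Row F was low in each dataset, at -0.82, -1.56 and -1.47, and row G spread from -1.15 over -0.53 to 0.16. Rows B, C and E were thus above 0 and row F below 0 in all 3 datasets. Outside the middle, Tcf7l2 in columns 1 to 3 and 9 to 11 had row means from -1.45 ± 0.45 in row F to 0.13 ± 0.92 in row D (SD, n = 3 each). The row D value without the 6 arrays was -0.25 ± 0.24 (SD, n = 3), so that every outer row mean lay below 0.

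Prkcd in columns 5 to 7 began lower, at -1.53, -0.66 and -0.60 in row A and -0.95, -0.12 and -0.13 in row B. It reached 1.91, 1.61 and 1.75 in row C, with an SD of 0.15 over the datasets. Row D gave 1.71, -0.66 and 1.82, row E gave 1.45, 0.90 and 1.24, and row F gave 0.15, 0.06 and -0.21. In row G it was at -0.51, -0.39 and -0.42. Rows A, B and G were below 0 and rows C and E above 0 in all 3 datasets. Its outer columns had -1.28 ± 0.10 in row A, -0.15 ± 0.29 in row F and 0.94 ± 1.61 in row G (SD, n = 3 each), where the G9 array of dataset 3 is included. In row D they had 0.26 ± 0.52 with all arrays and -0.10 ± 0.11 without the 6 (SD, n = 3 each). Columns 4 and 8 enter neither side of the comparisons of middle and outer columns. Prkcd there was at 0.89 ± 0.78 in row C, 1.43 ± 1.03 in row D and 0.03 ± 0.67 in row E (SD, n = 3 each).

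**Figure D3:**
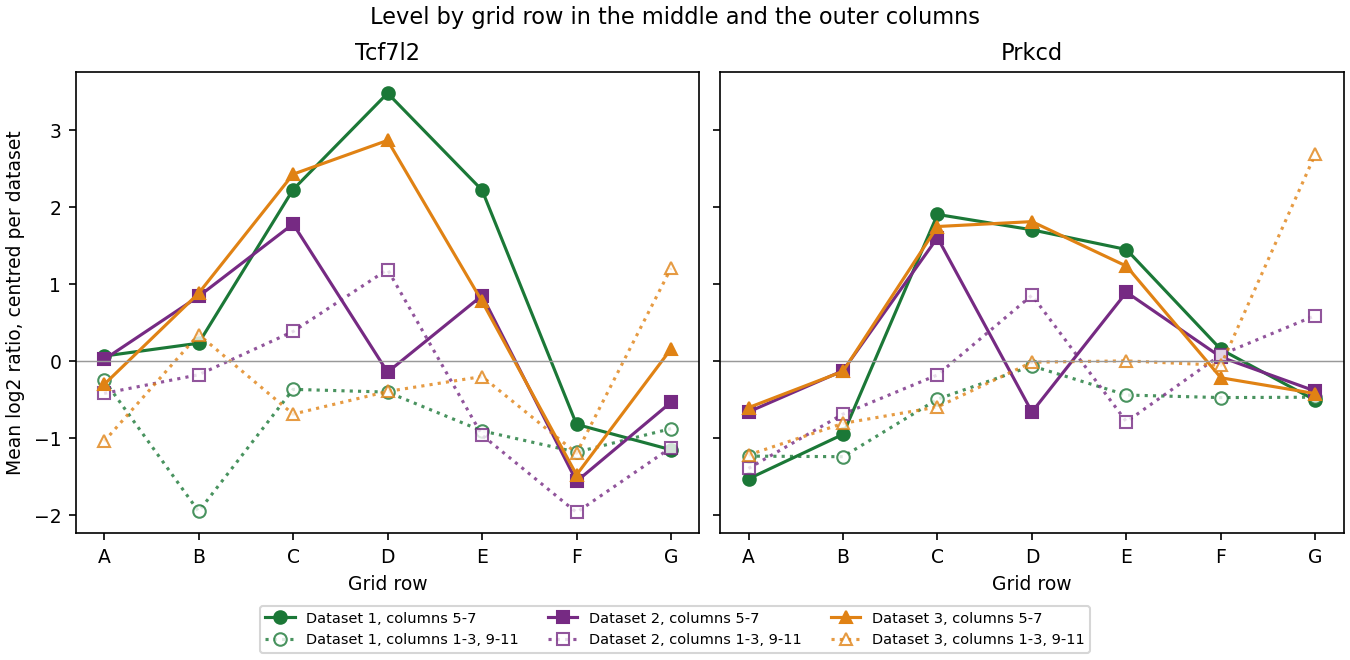
Mean log2 ratio, centred per dataset, by grid row A to G in columns 5 to 7 (filled markers, solid lines) and in columns 1 to 3 and 9 to 11 (open markers, dotted lines), for each dataset. In row C the middle columns lie above the outer ones in every dataset for both genes, by 2.37 on average for Tcf7l2 and 2.18 for Prkcd, and in row F the middle and outer columns lie close together.

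In row C the middle and outer columns did not overlap for either gene. This describes single arrays, which share datasets, and how many of all genes separate in this way was not counted. Every one of the 8 Tcf7l2 arrays at C5 to C7 (1.25 to 2.87) lay above all 18 arrays of columns 1 to 3 and 9 to 11 of that row (-0.98 to 0.82). The differences were 2.60, 1.40 and 3.12 in the datasets, a mean of 2.37 ± 0.88 (SD, n = 3), or 5.17-fold. Prkcd separated in the same way, with 1.22 to 2.24 on its 8 middle arrays and -1.50 to 0.39 on the 18 outer ones. Its differences were 2.40, 1.78 and 2.35, a mean of 2.18 ± 0.34 (SD, n = 3), or 4.52-fold. In row E the differences were 3.13, 1.81 and 0.98 for Tcf7l2 (mean 1.97 ± 1.09) and 1.89, 1.68 and 1.23 for Prkcd (mean 1.60 ± 0.34; SD, n = 3), but single arrays of the middle and outer columns overlapped for both genes. In row D dataset 2 had the opposite sign: Tcf7l2 gave 3.88, -1.33 and 3.26, and Prkcd 1.77, -1.52 and 1.83. Without the 6 arrays the row D difference rests on datasets 1 and 3, at 3.57 ± 0.44 for Tcf7l2 and 1.80 ± 0.04 for Prkcd (SD, n = 2). In row F neither gene had a difference of one sign, with means of 0.16 ± 0.38 and 0.14 ± 0.42 (SD, n = 3).

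None of these 7 within-row differences passed the adjusted threshold of limma for either gene. Over all genes, 0% were called in each of rows A, B, C, D, F and G and 0.00641% in row E, with 574 to 1675 genes per row under an unadjusted p of 0.05. Tcf7l2 was under that unadjusted level in 4 of 7 rows and Prkcd in 3 of 7. In row C the adjusted p was 0.770 for Tcf7l2 and 0.535 for Prkcd, and in row E 0.500 and 0.251. With 1 value per dataset the test has 3 values to set against the spread, and leaving out dataset 3 moved the row C difference of Prkcd past the threshold (2.09, adjusted p = 0.0231). Leaving out dataset 1 did the same for the row B difference of Tcf7l2 (0.78, adjusted p = 0.0214). Both calls rest on only 1 value from each remaining dataset, and neither was made with all datasets.

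Over the whole grid, columns 5 to 7 were above columns 1 to 3 and 9 to 11 in each dataset for both genes. The differences for Tcf7l2 were 1.61, 0.47 and 1.17, a mean of 1.08 ± 0.57 (SD, n = 3), with an adjusted p of 0.167 (limma). Those for Prkcd were 0.77, 0.34 and 0.74, a mean of 0.61 ± 0.24 (SD, n = 3), with an adjusted p of 0.141. Neither was called, and of all genes 0% were, with 2055 under an unadjusted p of 0.05. Without the 6 arrays of row D, 0.295% of genes were called. Prkcd was then one of them, at 0.77, 0.70 and 0.74 (mean 0.74 ± 0.03, adjusted p = 0.0244). Tcf7l2 rose to 1.19 ± 0.41 (SD, n = 3) and stayed just outside (adjusted p = 0.0528). On these 6 arrays both genes were low in the middle columns and high in the outer columns. The dataset 2 difference therefore had to rise without them, and the call of Prkcd is no separate support. With dataset 2 left out altogether both passed, Tcf7l2 at 1.39 (adjusted p = 0.00127) and Prkcd at 0.75 (adjusted p = 0.0363). These calls rest on only 1 value from each of datasets 1 and 3.

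No difference between the sides of the middle column was called. Columns 1 to 5 minus columns 7 to 11 gave 0.23 ± 0.10 for Tcf7l2 (95% interval 0.08 to 0.39, adjusted p = 0.958) and -0.07 ± 0.31 for Prkcd (95% interval -0.37 to 0.22, adjusted p = 0.964; SD, n = 3). These values without the 6 arrays of row D were 0.16 ± 0.10 (95% interval -8e-04 to 0.32, adjusted p = 0.985) and -0.16 ± 0.23 (95% interval -0.39 to 0.07, adjusted p = 0.985). In this comparison limma called 0% of genes, with 522 under an unadjusted p of 0.05. Over 29 mirror pairs of positions, the means on the 2 sides had Pearson's r of 0.67 for Tcf7l2 and 0.59 for Prkcd, a description over positions that share arrays' dataset, dye and row.

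At the lower edge of the block, row F minus row E in columns 5 to 7, Tcf7l2 differed by -3.04, -2.41 and -2.25 in the 3 datasets, a mean of -2.57 ± 0.42 (SD, n = 3; unadjusted p = 5.7e-05, adjusted p = 0.179, limma), or 5.94-fold. All 9 arrays of row F (-1.69 to -0.39) lay below all 9 arrays of row E (0.65 to 2.32). How many of all genes separate in this way was not counted. Prkcd had a smaller difference there, -1.20 ± 0.32 (SD, n = 3; adjusted p = 0.526),, or 2.29-fold. At the upper edge, from row B to row C, the difference was 2.16 ± 0.61 for Prkcd and 1.50 ± 0.53 for Tcf7l2 (SD, n = 3; adjusted p = 0.779 for both). Whether the genes differ in either step was tested within arrays and not called (F minus E: -1.37 ± 0.50, adjusted p = 0.557; C minus B: -0.66 ± 0.29, adjusted p = 0.779; SD, n = 3). Of the 6 steps between neighbouring rows, Tcf7l2 was under an unadjusted p of 0.05 in 3 and Prkcd in 2, and neither was called in any. Of all genes 0% were called in each step, with 402 to 1138 under that unadjusted level. A difference in the middle-column contrast between rows A to C and rows E to G was not called either, at 0.52 ± 0.67 for Tcf7l2 and 0.43 ± 0.93 for Prkcd (adjusted p = 0.759 and 0.815; SD, n = 3). In that comparison 0.0128% of genes were called.

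The genes parted between the ends of the grid. Tcf7l2 was higher in rows A and B than in rows F and G, by 0.86, 1.12 and 0.93 in datasets 1, 2 and 3, a mean of 0.97 ± 0.14 (SD, n = 3; adjusted p = 0.0720, limma). Prkcd was lower there, by -0.78, -0.85 and -1.13, a mean of -0.92 ± 0.19 (SD, n = 3; adjusted p = 0.109). Neither difference was called alone, and 0.109% of all genes were (0.0256% higher and 0.0833% lower in rows A and B). The difference between the genes was tested on its own, as Tcf7l2 minus Prkcd within each array that measured both. It was 1.85, 2.07 and 2.11 higher in rows A and B than in rows F and G, a mean of 2.01 ± 0.14 (SD, n = 3; adjusted p = 0.0106), or 4.03-fold. Within rows A and B this quantity was 0.91 ± 0.14 and within rows F and G -1.10 ± 0.27, with all 3 datasets apart. It was lost without dataset 2 (1.98, adjusted p = 0.197) and without dataset 3 (1.96, adjusted p = 0.0920), while without dataset 1 it was 2.09 (adjusted p = 0.0425). It was also lost with floor values kept (1.86, adjusted p = 0.177) and under quantile normalization (2.24, adjusted p = 0.0871). Without the single G9 array of dataset 3, where Prkcd stood at 5.77, it was 1.91 (adjusted p = 0.0136). Without the F4 array of dataset 2, where Tcf7l2 stood at 4.37, it was 2.11 (adjusted p = 0.0249).

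**Figure D4:**
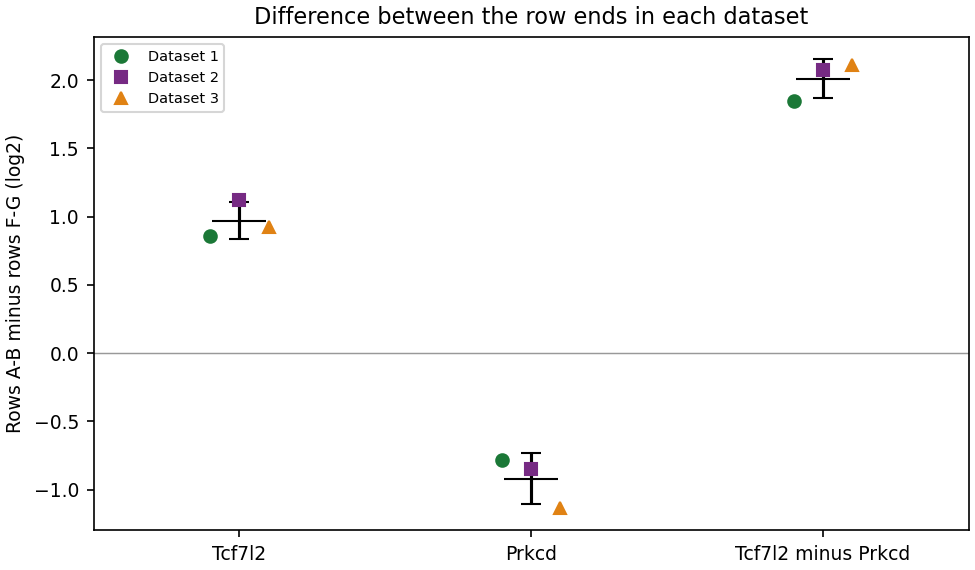
Points give, for each dataset, the mean log2 ratio in rows A and B minus that in rows F and G for Tcf7l2, for Prkcd and for Tcf7l2 minus Prkcd within arrays, with bars for the mean and SD over the 3 datasets. Tcf7l2 lies at 0.86 to 1.12, Prkcd at -1.13 to -0.78 and their difference at 1.85 to 2.11.

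The within-array difference also varied among positions (F = 2.55, adjusted p = 2.7e-04, limma), a call that was kept without the 6 arrays of row D (F = 2.52, adjusted p = 3.8e-04) and lost without dataset 2 (F = 1.37, adjusted p = 0.745). Between middle and outer columns it differed by 0.49 ± 0.30 (SD, n = 3; adjusted p = 0.247; 95% interval 0.21 to 0.78), so a difference between the genes in that contrast was not called, nor was it without the 6 arrays (0.49 ± 0.31, adjusted p = 0.197). Across the 68 position means, Tcf7l2 and Prkcd had Pearson's r of 0.55 and Spearman's rho of 0.46. Within rows C to E r was 0.74 (33 positions), within rows A and B 0.62 (18 positions) and within rows F and G 0.29 (17 positions). In single datasets it was 0.70, 0.48 and 0.48. Leaving out the 6 arrays of row D gave 0.60 over all position means (rho 0.42), 0.78 within rows C to E and 0.38 in dataset 2. These points share arrays, so what raises or lowers a whole array enters both genes.

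**Figure D5:**
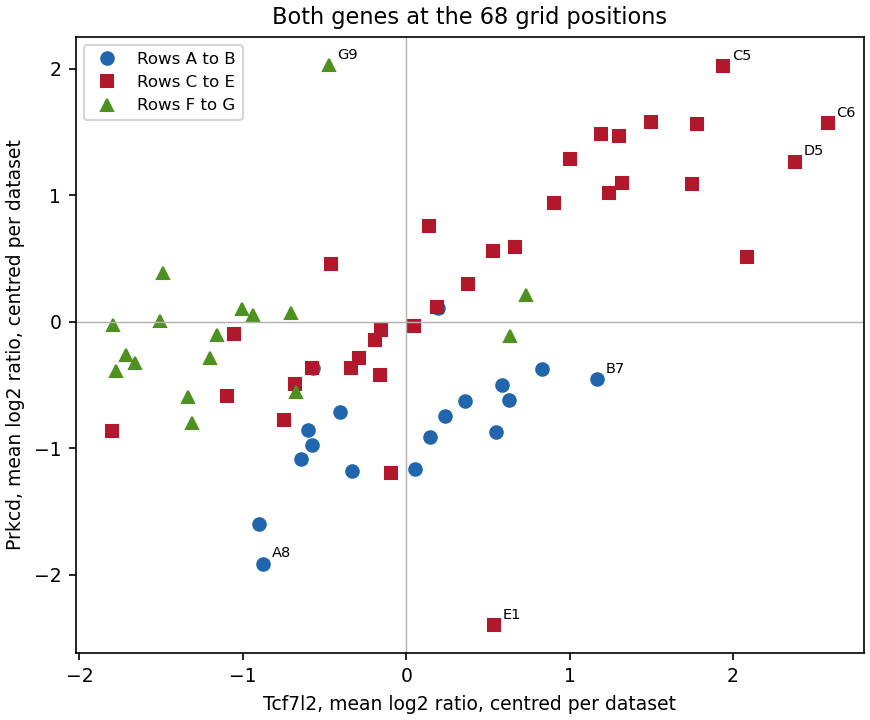
Each point is 1 of the 68 grid positions, with the mean log2 ratio of Tcf7l2 on the x axis and of Prkcd on the y axis, both centred per dataset; colour and shape give the grid rows. Positions of rows C to E run along a diagonal (r = 0.74), those of rows A and B lie mostly below it and those of rows F and G mostly to its left, and the labels name some of the outlying positions, among them G9 and E1.

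The maps repeated only in part from dataset to dataset. For Tcf7l2 the correlation over positions was 0.38 between datasets 1 and 2 (59 positions), 0.49 between 1 and 3 (54) and 0.27 between 2 and 3 (63). For Prkcd it was 0.35, 0.43 and 0.42 (55, 53 and 61 positions). Medians over all genes were 0.0550, 0.0276 and 0.0037, so both members lay above the usual gene in every pair. Without the 6 arrays of row D the pairs with dataset 2 rose to 0.48 and 0.37 for Tcf7l2 and to 0.54 and 0.54 for Prkcd. The spread of a position over its datasets had a median SD of 0.70 for Tcf7l2 and 0.53 for Prkcd, against a span of 4.38 and 4.42 between the highest and lowest position means. At some positions 1 array stood more than 2 log2 units above the others. For Tcf7l2 these included F4 in dataset 2 (4.37, next highest -0.42), E1 in dataset 3 (3.06, next -0.17) and G7 in dataset 3 (2.85, next 0.21). For Prkcd they included G9 in dataset 3 and E7 in dataset 1 (3.13, next 0.62). The arrays of F4, E1 and G9 also had a wide spread of all genes, with a median absolute deviation of 0.93, 0.80 and 1.06 against 0.33 and 0.46 as the typical values of datasets 2 and 3. The part of that spread in these single values was not tested.

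Of 39 measured genes of the Wnt pathway list, 4 were called among positions, beside 4.91% of all genes: Tcf7l2 itself, Ctnnb1, Dkk3 and Nlk. Leaving out Tcf7l2, 3 of 38 were called. Ctnnb1, which encodes beta-catenin, was highest at C4 (1.06 ± 1.12, SD, n = 3; adjusted p = 0.00607). Dkk3 is a secreted relative of the Dickkopf inhibitors. Its highest mean was at G5 (1.69 ± 0.01, SD, n = 2; adjusted p = 1.4e-19). It was lower in rows A and B than in rows F and G, by -1.96 ± 0.09 (SD, n = 3; adjusted p = 0.0140), the opposite sign to Tcf7l2. Nlk, a kinase that acts on TCF/LEF factors, was highest at G8 (0.98 ± 0.90, SD, n = 3; adjusted p = 0.0114). Apart from Tcf7l2, 23 of 38 genes of the list had row C differences between middle and outer columns above 0, with a median of 0.05, beside 0.01 over all genes, and none was called in either direction. For rows A and B minus rows F and G, 16 of 38 were above 0, with a median of -0.04 beside -0.02 over all genes, and Dkk3 was the single call.

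Among relatives of Prkcd, 2 of 7 measured genes of the protein kinase C family were called among positions, Prkcd and Prkcz, beside 4.91% of all genes. Leaving out Prkcd, 1 of 6 was called. Prkcz, the zeta form, which does not need diacylglycerol, was highest at F4 (0.52 ± 0.23, SD, n = 3; adjusted p = 1.4e-04), and its row C difference was -0.32 ± 0.10, below 0 where that of Prkcd was above. Of 18 measured genes for kinase substrates, scaffolds and enzymes that make or use diacylglycerol, 5 were called by the same test. Gap43, a growth-cone substrate of protein kinase C, was highest at C6 (1.24 ± 0.43, SD, n = 3) and higher in rows A and B than in F and G (1.49 ± 0.21, adjusted p = 0.0350). Chn1, a diacylglycerol-binding Rac regulator, and Nrgn, a postsynaptic substrate, were both lowest at A6 (-1.73 ± 0.18 and -1.88 ± 0.14, SD, n = 3). In the same row-end comparison they differed by -1.29 ± 0.10 and -1.65 ± 0.30 (adjusted p = 0.0350 for both). Unc13c was highest at C4 (1.72 ± 0.87, SD, n = 3), and Marcksl1 was the fifth gene called. Apart from Prkcd the median row C difference of the kinase family was -0.01, with 3 of 6 above 0, and that of the substrates and enzymes was 1e-04, with 9 of 18 above 0.

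Of 13 measured genes known from the thalamus, 5 were called among positions, beside 4.91% of all genes: the members, Plekhg1, Patj and Pdp1. Leaving out the members, 3 of 11 were called. Without the 6 arrays of row D, 7 of the 13 were called, with Tnnt1 (adjusted p = 0.00260) and Amotl1 (adjusted p = 0.0224) added. Pdp1, a phosphatase of pyruvate dehydrogenase, was highest at D7 (0.78 ± 0.68), Patj, a polarity scaffold, at D5 (0.76 ± 0.89) and Plekhg1 at C11 (0.85 ± 1.19; SD, n = 3). In row C, 10 of the 11 genes other than the members had differences above 0, with a median of 0.34 against 0.01 over all genes, and none was called. Tnnt1, a slow muscle troponin T, differed by 1.36 ± 0.31 (SD, n = 3), and the values of both members lay above it. Row E was less uniform: 7 of 11 were above 0, with a median of 0.17 against 0.0082 over all genes. Their mean there was -0.04 to 0.18 in the middle and -0.09 to 0.06 outside, which overlap. Over the whole grid 7 of 11 were above 0, with a median of 0.03, and none was called in either contrast. For rows A and B against rows F and G, 7 of 11 were above 0 and none was called. A row C median above 0 was not particular to this list. Myelin genes had a median of 0.45 (5 of 5 above 0) and hypothalamus genes 0.40 (5 of 7). Medians below 0 were found for striatum (-0.92), cortex (-0.52), microglia (-0.32), central amygdala (-0.11, without Prkcd) and vascular genes (-0.08).

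Markers of other cell types and regions also varied over these positions. By the test among positions, myelin genes were called in 4 of 5 cases (Cryab, Qdpr, Gsn, Tspan2), and the mean level of the 5 was -0.04 to 0.24 in the middle columns of row C and -0.46 to -0.09 in the outer ones. In row E it was 0.24 to 1.02 against -0.26 to -0.0038. Mbp, which encodes myelin basic protein, was the member of the list not called (adjusted p = 0.861), and is named after its value was seen. Of newly formed oligodendrocyte genes 1 of 8 was called, Bcas1, highest at D4 (1.63 ± 0.27, SD, n = 3), and the mean of the 8 in row C was -0.10 to 0.09 in the middle and -0.23 to 0.03 outside. In row E their mean was 0.25 to 0.41 in the middle and -0.08 to 0.20 outside. There 7 of 8 differences were above 0, with a median of 0.19 beside 0.0082 over all genes, and none was called. Choroid plexus genes were called in 2 of 5 cases, with Ttr highest at E7 (3.72 ± 0.61, SD, n = 3), and their mean in row E was 1.38 to 1.93 in the middle and -0.26 to 0.27 outside. Of the striatal genes 5 of 7 were called among positions. Their row C differences were above 0 in 0 of 7, with a mean of -0.93 to -0.06 in the middle and 0.59 to 0.87 outside, and none of these differences was called. The part of these cell types in the levels of the members was not tested.

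For the regions besides the thalamus where Prkcd is known, 5 of 6 measured central amygdala genes were called (Prkcd, Sst, Dlk1, Ppp1r1b, Ezr) and 1 of 2 septal genes (Prkcd). Leaving out Prkcd, these counts were 4 of 5 and 0 of 1. Of the 5 amygdala genes other than Prkcd, 1 had a row C difference above 0, and 1 had a row E difference above 0. The other septal gene, Sln, is named after its value was seen. Its difference was -0.55 in row C and 1.50 in row E, and neither was called. In row E it was at 0.82 to 1.64 in the middle and -0.41 to -0.11 outside. The habenula list had 1 measured gene, Chrnb4, which was not called (adjusted p = 0.961) and is also named after its value was seen. Called genes numbered 3 of 3 for cortex (Vxn, Mef2c, Fezf2), 3 of 7 for hypothalamus (Cartpt, Ndn, Dlk1), 2 of 5 for hippocampus (Bok, Calb1) and 4 of 7 for astrocytes (Aldoc, Slc1a3, Agt, Sparcl1). Midbrain, vascular and microglial lists had 0 of 5, 0 of 5 and 0 of 4 called by limma. These counts stand beside 4.91% over all genes, and some genes stand in more than 1 list.

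Among 8446 other genes with a symbol, the map most like that of Tcf7l2 was that of Amotl1, a junction scaffold of the angiomotin family, with Pearson's r of 0.77 over the 68 position means. Patj (0.67), Dbi (0.67), Zfhx3 (0.66), Nfe2l2 (0.65), Serpinb1a (0.65), Tnnt1 (0.65) and Serpinf1 (0.65) followed. Their values lay close together, so their order beyond the first is loose. Amotl1 itself was not called among positions with all arrays (adjusted p = 0.705). Of these 8 genes, 6 remained among the 8 most like Tcf7l2 without the 6 arrays of row D, and 7 with Spearman's rho. The most opposite maps were those of Epop, a protein that joins elongin to the Polycomb complex (r = -0.77), and of Gda, guanine deaminase (r = -0.73). Epop was highest at F3 (1.61 ± 1.02, SD, n = 3), a position where Tcf7l2 was among its lowest.

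For Prkcd the most alike map was that of Map4, a microtubule-associated protein (r = 0.72). It was followed by Csrp1 (0.64), Tnks2 (0.64), Aplp2 (0.64), Litaf (0.63), Arrdc3 (0.62), Rnf13 (0.62) and Gstm7 (0.62). Csrp1, a LIM-domain protein, was also highest at G9 (1.15 ± 2.82, SD, n = 3), where 1 array set the Prkcd mean. Map4 was highest at C4 (0.89 ± 0.43) and Litaf, a membrane protein of endosomes, at E6 (1.06 ± 0.39; SD, n = 3). Of these 8, 7 remained without the 6 arrays and 3 with Spearman's rho, so most of the list depends on the measure. The most opposite maps belonged to Rtn1, a reticulon of the endoplasmic reticulum (r = -0.57), and Dab1, the adaptor of reelin signalling (r = -0.53). The 8 genes of the 2 members had 0 in common. Prkcd stood at rank 29 among the genes most like Tcf7l2, and Tcf7l2 at rank 47 among those most like Prkcd, where the median r over all genes was 0.0358 and 0.0284.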

How the data were processed

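The authors deposited 1 table of log2 ratios (20847 rows, 192 arrays), in which 99.9% of rows have a median within 0.001 of 0. Its lowest value is -6.64, the log2 of a ratio of 0.01. Floor values (0.483%) were treated as not measured, and 1.93% were missing. Trizol extraction and Superscript II transcription are stated in the labels' protocols. The sources used here do not name the scanner, background correction, normalization or numerator of the ratio. Within a dataset the lowest correlation between 2 arrays was -0.573, with 0.676% of pairs under -0.3; since dyes are stated and brain regions could oppose, the direction was kept.

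From every array its median over the rows without gaps was subtracted, the largest such step being 0.353. A row needed values on 80% or more of each dataset's arrays. Control rows (19) were dropped, and rows naming 1 gene were averaged. Genes were named through the platform annotation: 13164 rows had 1 symbol and 317 several, and 12982 symbols matched RefSeq's gene table. No total or depth exists for ratios; the number of arrays limits the precision.

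Tests used limma 3.58.1 in R 4.3.3: a moderated F test over positions with dataset as a block, and a two-sided test of 17 zone differences with 1 value per dataset, each adjusted over all genes by Benjamini-Hochberg at 0.05. Both were also run on simulated data whose noise was independent between arrays and without outlying arrays. That setting differs from these data, so it does not settle the error rates here. The F test's block is the dataset, which the labels call a biological replicate. Arrays of a dataset deviated together from the position means: over 7556 genes the median correlation of deviations was 0.237 within and -0.124 between datasets. These deviations still hold each gene's dataset offset, which the block removes, so they do not measure correlation left in the fitted model. Subtracting a mean of so few arrays also pushes the value between datasets below 0. The highest correlation of any 2 arrays was 0.826. Named genes are the members, the 8 genes most like each and the 2 most opposite by Pearson's r, and the called genes of each list, up to 4 by F. The members, lists and comparisons were chosen with earlier results of these data known. Prkcd at E1 was fitted from 1 array, and 12 positions from 2 datasets.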

Additional observations from a re-analysis of the deposited data

Results flagged for a closer look

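Within rows, Prkcd differed in sign between rows: columns 5 to 7 minus the outer columns was 0.51 in row B, 2.18 in row C and 1.60 in row E, above 0 in each of the 3 datasets, and -1.38 in row G, below 0 in each. The difference between these rows was not tested. The row G value was -0.04, -0.98 and -3.11 in datasets 1, 2 and 3, and without the G9 array of dataset 3 it was -0.35.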

How the results depend on the processing

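The F of Tcf7l2 ranged from 1.80 to 2.75 over the datasets left out, that of Prkcd from 2.07 to 2.42 and that of Tcf7l2 minus Prkcd from 1.37 to 2.80. All genes called among positions numbered 213 to 546 with a dataset left out, 366 without the replicate block, 1163 with quantile normalization and 2504 with array weights, against 767. Genes called over all lists numbered 23 to 27, against 40. For rows A and B minus F and G, Tcf7l2 passed with positions in all 3 datasets (0.98, adjusted p = 0.0427). Tcf7l2 minus Prkcd there did not pass without the replicate block (2.01, adjusted p = 0.197), with quantile normalization (2.24) or with floor values kept (1.86), and ranged from 1.96 to 2.09 over the datasets left out. The replicate block changed no other call of the members. Columns 5 to 7 minus outer columns ranged from 0.82 to 1.39 for Tcf7l2 and from 0.54 to 0.75 for Prkcd with a dataset left out, and Prkcd passed without the 6 arrays (0.74). With a dataset left out, row B of Tcf7l2 ranged from 0.78 to 1.60 and row C of Prkcd from 2.06 to 2.37. Signs turned, for values not called, in these cases. The mirror difference of Prkcd was 0.0109 without G3, G6 and G8 of dataset 3 and also 0.0109 without its G9, and -0.21 to 0.10 with a dataset left out. The row F difference of Prkcd was -0.036 with quantile normalization, and -0.10 to 0.30 with a dataset left out. The row G difference of Tcf7l2 was 0.10 with quantile normalization, 0.65 without G3, G6 and G8, 0.16 without G9, and -0.66 to 0.16 with a dataset left out. Without the 6 arrays, row D minus row C was 0.85 for Tcf7l2 and row E minus row D was -0.42 for Prkcd. With a dataset left out these ranged from -0.74 to 0.85 and from -0.42 to 0.65, and the Prkcd contrast of rows A to C minus E to G from -0.0481 to 0.88. Leaving out single arrays of dataset 3, or F4 of dataset 2, was chosen after seeing the data. The 6 arrays of row D are likewise set apart by the members' own values. Restricting to rows measured on every array gives no value for either gene, since both have missing values. The cause was not tested.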
